A study of Homo sapiens with 8 samples.

Results

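The 10 transcripts described here encode receptors through which myeloid cells sense growth factors and cytokines, namely CSF1R, FLT3, KIT, CSF2RA, IL3RA, CSF2RB, CSF3R, IL6R, IL10RA and IFNGR1. They were taken by gene symbol, 10 of the 26364 rows of the expression table. RNA was sequenced from MV4-11, a human acute myeloid leukaemia (AML) cell line with an internal tandem duplication of FLT3 (FLT3-ITD) and the MLL-AF4 fusion, so every group carries both lesions and all groups come from the same line. The cells received vehicle (DMSO, the control), tranylcypromine (TCP) at 5 μM, an inhibitor of the histone demethylase LSD1, palbociclib at 0.5 μM, an inhibitor of CDK4 and CDK6, or both molecules (the combination), and were sampled on day 4. Each of the 4 groups has 2 libraries. The study's methods give the CDK6 inhibitor 1 day ahead of the second molecule, and how long TCP alone was given is not settled by the sources used here. Nothing states that the 2 libraries of a group came from separate cultures, so the p-values measure the spread between these libraries, which may be technical.

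Values are TPM, read counts corrected for transcript length and scaled to the same total in each library, so levels of different receptors can be compared within a library. A gene was tested with limma on log2(TPM + 1) when it reached 1 TPM in at least 2 libraries, which 14151 genes and 8 of the 10 receptors did. A differentially expressed gene (DEG) had a log2 fold change of at least 1 in either direction and a Benjamini-Hochberg adjusted p below 0.01. Fold changes refer to TPM + 1 and understate changes of low genes. CSF2RA and IL3RA stayed below 1 TPM in every library and were not tested. KIT passed only through both control libraries and palbociclib replicate 1, in which it reached 1 TPM.

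Haematopoietic growth factors act through 2 kinds of receptor. CSF1R, FLT3 and KIT are receptor tyrosine kinases with their own kinase domain, and bind CSF1 or IL34, FLT3LG and KITLG respectively. The other receptors have no kinase of their own and signal through JAK kinases and STAT factors. These are bound by the receptor chain itself or by a partner chain, such as IL6ST for IL6R. In normal marrow KIT and FLT3 mark immature progenitors, CSF1R is the receptor of the monocyte and macrophage lineage, and CSF3R is that of the granulocyte lineage.

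Promoter sequences are shown for CSF1R and CSF3R, which rose with palbociclib, and for FLT3, which fell. Each line gives the 200 bases before a RefSeq start site, 5′ to 3′ on the gene's own strand and placed by its unique exact match in GRCh37, with matches to 3 motifs in capitals.
CSF1R, chr5:149466118-149466317, minus strand: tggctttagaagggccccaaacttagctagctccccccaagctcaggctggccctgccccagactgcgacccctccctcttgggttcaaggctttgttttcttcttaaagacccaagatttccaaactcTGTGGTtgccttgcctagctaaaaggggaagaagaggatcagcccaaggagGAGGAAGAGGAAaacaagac
CSF3R, chr1:36948515-36948714, minus strand: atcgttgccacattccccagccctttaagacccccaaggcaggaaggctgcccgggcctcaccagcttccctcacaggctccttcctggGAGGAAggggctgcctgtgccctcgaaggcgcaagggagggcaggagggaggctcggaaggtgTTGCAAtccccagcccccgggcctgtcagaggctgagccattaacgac
FLT3, chr13:28674714-28674913, minus strand: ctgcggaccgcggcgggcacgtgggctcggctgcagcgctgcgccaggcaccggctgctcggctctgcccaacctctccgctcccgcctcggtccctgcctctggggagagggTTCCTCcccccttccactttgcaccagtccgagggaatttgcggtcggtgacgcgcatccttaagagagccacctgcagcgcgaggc
The 250 bases before each start were searched on both strands. The letters GAGGAA, of the type bound by the factor SPI1, occurred in 23.6% of 35116 RefSeq windows of this kind. The letters TGTGGT, of the type bound by RUNX factors, occurred in 11% of them. The letters TTGCAA, of the type bound by CEBP factors and the same on both strands, occurred in 4.73%. None of these motifs overlaps another in the lines shown. The CSF1R window, which precedes the start of its main annotated transcript, held GAGGAA 20 and 14 bases and TGTGGT 71 bases before the start. That pairing was present in 2.62% of all windows. The motif letters were chosen with these sequences known, so the shares do not measure how unusual a match is. The other CSF1R start lies further upstream, and its window (chr5:149492929-149493178) held none of the motifs. The CSF3R window shown held GAGGAA 111 bases and TTGCAA 48 bases before the start, while the window of the other CSF3R start held none of the motifs. That of FLT3 held the first motif on the opposite strand, read as TTCCTC, 87 bases before it. On either strand GAGGAA also occurred in windows of CSF2RA, IL6R, IL10RA and IFNGR1. In IL10RA it lay 20 bases before the start, as in CSF1R. The windows of KIT and IL3RA held none of the motifs. GAGGAA was thus found in receptors that rose, in FLT3, which fell, and in CSF2RA, which was not tested. Windows were found for 9 of the 10 receptors, 12 in all, and a match describes the letters of the window only.

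Among the receptor tyrosine kinases, CSF1R rose and FLT3 fell with palbociclib and with the combination, so that the balance between them changed. CSF1R (chr5:149432854-149492935, minus strand) measured 14.6 and 14.7 TPM in the control libraries, 21.2 and 20.9 with TCP, 36.4 and 37.9 with palbociclib and 86.9 and 90.7 with the combination. The 4 groups did not overlap. Against control, CSF1R was 2.44-fold higher with palbociclib (log2 fold change 1.29, SE 0.07, limma adjusted p = 8.69e-05) and 5.75-fold higher with the combination (2.52, SE 0.07, adjusted p = 5.85e-06). With TCP the log2 fold change was 0.50 (SE 0.07, limma adjusted p = 0.0614), which did not pass the test.

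FLT3 (chr13:28577411-28674729, minus strand), the receptor whose duplicated form is active without ligand in these cells, measured 248.7 and 221.3 TPM in control, 263.2 and 182.0 with TCP, 94.8 and 69.8 with palbociclib and 81.1 and 62.6 with the combination. Every library with palbociclib was below every library without it. The log2 fold change against control was -1.52 with palbociclib (SE 0.22, limma adjusted p = 0.00194) and -1.71 with the combination (SE 0.22, adjusted p = 0.00083), levels 0.35-fold and 0.307-fold of control. FLT3 had the widest spread of the called receptors, and its call with palbociclib was lost without control replicate 1 (-1.43, limma adjusted p = 0.0158), without control replicate 2 (-1.60, adjusted p = 0.0121) or without palbociclib replicate 2 (-1.30, adjusted p = 0.016). FLT3 was lower in replicate 2 than in replicate 1 in each group. A further fit took the replicate number as a block, a pairing inferred from the libraries only. In it FLT3 kept its call, with a limma adjusted p of 9.78e-05 with palbociclib and 3.95e-05 with the combination. The TPM do not show whether a transcript carries the duplication. KIT (chr4:55523434-55606949, plus strand), the receptor of stem cell factor, was low throughout, at 1.48 and 1.15 TPM in control, 0.890 and 0.528 with TCP, 1.17 and 0.984 with palbociclib and 0.883 and 0.618 with the combination. None of its differences passed the test.

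In the control libraries FLT3 exceeded CSF1R 17.1- and 15.1-fold in TPM, and with TCP 12.4- and 8.70-fold. With palbociclib the ratio was 2.60 and 1.84, and with the combination 0.933 and 0.690. CSF1R was thus above FLT3 in both libraries of the combination and in no other library. FLT3 supplied 51.2% and 49.1% of the summed TPM of the 10 receptors in control and 10.1% and 7.64% with the combination.

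**Figure D1:**
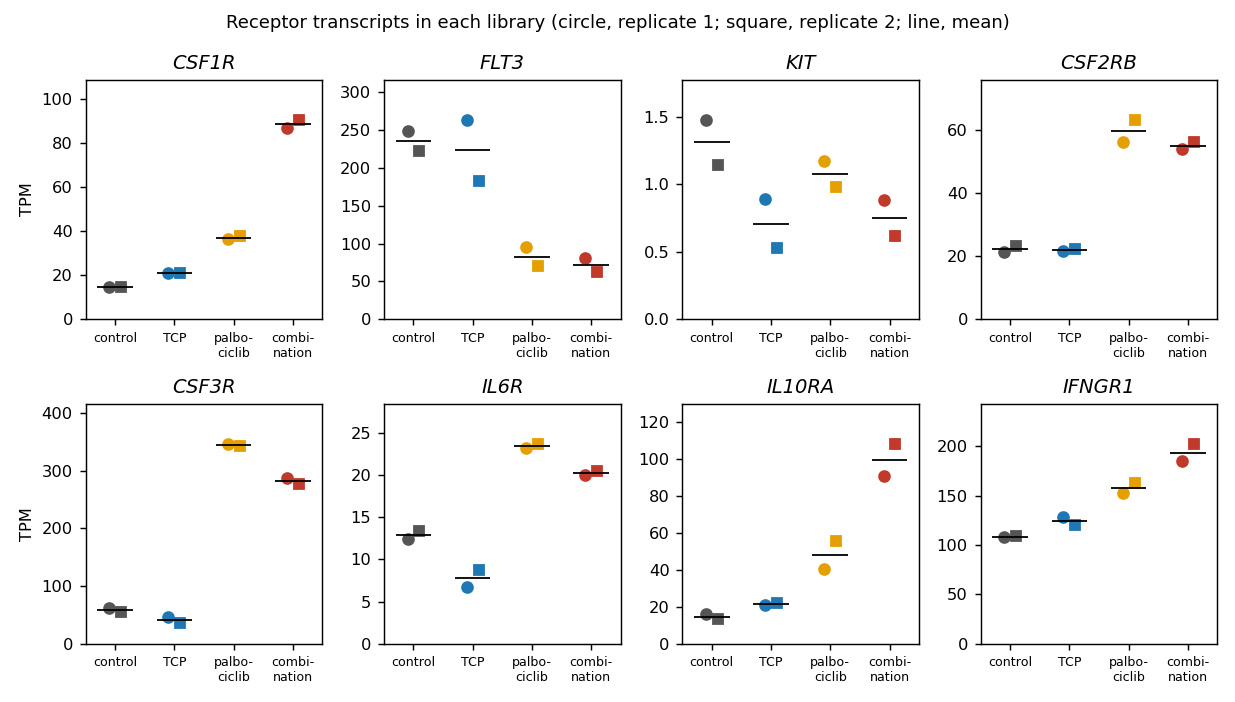
TPM of the 8 tested receptors (vertical axes, linear from 0, a separate scale for each receptor) in the 4 groups, with circles for replicate 1, squares for replicate 2 and a line at the mean of 2 libraries. CSF1R runs from 14.6 TPM in control to 90.7 TPM in combination replicate 2, while FLT3 is at most 94.8 TPM in the 4 libraries with palbociclib.

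CSF2RA, IL3RA and CSF2RB belong to the receptor family of CSF2, IL3 and IL5, in which a ligand-specific alpha chain pairs with the shared beta chain CSF2RB. CSF2RB (chr22:37309670-37336481, plus strand) measured 21.2 and 23.4 TPM in control, 21.6 and 22.2 with TCP, 56.2 and 63.2 with palbociclib and 53.8 and 56.2 with the combination. It was 2.61-fold higher than control with palbociclib (log2 fold change 1.38, SE 0.09, limma adjusted p = 0.000124) and 2.41-fold higher with the combination (1.27, SE 0.09, adjusted p = 8.82e-05). With TCP alone its libraries lay within the control range, with a log2 fold change of -0.02 whose sign turned under other scalings.

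The alpha chains were almost unmeasured. CSF2RA, the CSF2-specific chain, ranged from 0.0340 to 0.284 TPM and IL3RA, the IL3-specific chain also known as CD123, from 0.0298 to 0.337 TPM over the 8 libraries. IL5RA, the third alpha chain, was listed at 0 in each. The annotation of GRCh37 places CSF2RA (X, 1387693 to 1429274, and Y, 1337693 to 1379274) and IL3RA (X, 1455509 to 1501582, and Y, 1405509 to 1451582) in the first pseudoautosomal region, which X and Y share. Reads from such genes have more than 1 best place in a genome that holds both copies. Of 15 listed genes of this region, 13 were below 1 TPM in every library, against 44.3% of all rows of the table, and these include CD99, a widely expressed surface protein, at no more than 0.697 TPM. The highest was SLC25A6, a mitochondrial carrier of ADP and ATP, at up to 4.51 TPM. The low values of CSF2RA and IL3RA therefore cannot be read as absence of these receptors, and whether the counting of reads set them was not tested.

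**Figure D2:**
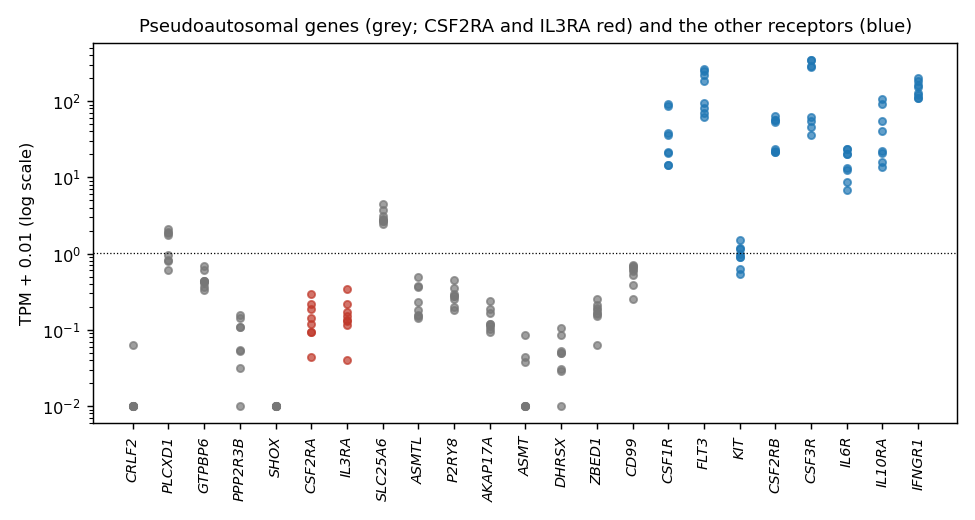
TPM + 0.01 on a log scale for the 15 pseudoautosomal genes (grey, with CSF2RA and IL3RA in red) and the other 8 receptors (blue), with 1 point for each of the 8 libraries and a dotted line at 1 TPM. Apart from SLC25A6 and 4 libraries of PLCXD1, every pseudoautosomal value lies below the line, and among the other receptors only KIT reaches below it.

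CSF3R (chr1:36931644-36948879, minus strand), the receptor of the granulocyte growth factor CSF3, had the largest increase with palbociclib among the 8 tested receptors. It measured 62.8 and 54.5 TPM in control, 46.1 and 36.2 with TCP, 346 and 343 with palbociclib and 287 and 277 with the combination. The libraries with palbociclib were far above those without it, and the combination lay below palbociclib alone. CSF3R was 5.81-fold higher than control with palbociclib (log2 fold change 2.54, SE 0.12, limma adjusted p = 4.75e-05) and 4.76-fold higher with the combination (2.25, SE 0.12, adjusted p = 3.43e-05). Its share of the summed TPM of the 10 receptors was 12.9% and 12.1% in control and 46.1% and 45.3% with palbociclib.

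IL6R (chr1:154377669-154441926, plus strand), the ligand-binding chain of the IL6 receptor, measured 12.4 and 13.3 TPM in control, 6.72 and 8.78 with TCP, 23.2 and 23.7 with palbociclib and 20.0 and 20.5 with the combination. The groups did not overlap, with TCP lowest. Against control the log2 fold change was 0.82 with palbociclib (SE 0.13, limma adjusted p = 0.00238) and 0.62 with the combination (SE 0.13, adjusted p = 0.00586), under the fold required of a DEG. With TCP it was -0.67 (SE 0.13, limma adjusted p = 0.112).

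IL10RA (chr11:117857085-117873752, plus strand) and IFNGR1 (chr6:137518620-137540586, minus strand) are the ligand-binding chains for IL10, which dampens inflammatory responses of monocytes, and for IFNG, which activates them. IL10RA measured 15.9 and 13.5 TPM in control, 20.8 and 21.8 with TCP, 40.2 and 55.3 with palbociclib and 90.5 and 108 with the combination. Its libraries stood in the same order of groups as those of CSF1R, without overlap. It was 3.08-fold higher than control with palbociclib (log2 fold change 1.62, SE 0.17, limma adjusted p = 0.000515) and 6.39-fold higher with the combination (2.68, SE 0.17, adjusted p = 5.26e-05). IFNGR1 measured 108 and 109 TPM in control, 128 and 120 with TCP, 152 and 163 with palbociclib and 185 and 202 with the combination. The order of groups was again the same and the steps were smaller, with log2 fold changes of 0.53 (SE 0.08, limma adjusted p = 0.00195) and 0.83 (SE 0.08, adjusted p = 0.000225), under the fold required of a DEG.

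Counted together, 5 of the 8 tested receptors were DEG with palbociclib against control, where 9.1% of the genes tested were DEG. The 4 higher were CSF1R, CSF2RB, CSF3R and IL10RA and the 1 lower was FLT3, beside 4.54% of all genes higher and 4.56% lower. With the combination 5 were DEG, where 13.7% of the genes tested were, again CSF1R, CSF2RB, CSF3R and IL10RA higher and FLT3 lower, beside 5.87% of all genes higher and 7.82% lower. Disregarding the fold, 7 of 8 had an adjusted p below 0.01 in both comparisons, KIT being the exception, beside 27.3% and 36% of the genes tested. The median log2 fold change of the 8 receptors was 1.05 in both comparisons, beside -0.16 with palbociclib and -0.22 with the combination over all genes tested. With 2 libraries a group, the libraries of palbociclib and control did not overlap for 76.2% of the genes tested, and those of the combination and control for 80.2%, so a lack of overlap alone is common. Both comparisons use the same control libraries.

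With TCP against control limma called none of the 8 receptors, where 0.0565% of the genes tested were DEG, all of them higher. At an unadjusted p below 0.05 there were 5, CSF1R, IL10RA and IFNGR1 higher and CSF3R and IL6R lower, beside 8.77% of the genes tested. The median log2 fold change was -0.06, beside -0.04 over all genes tested.

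**Figure D3:**
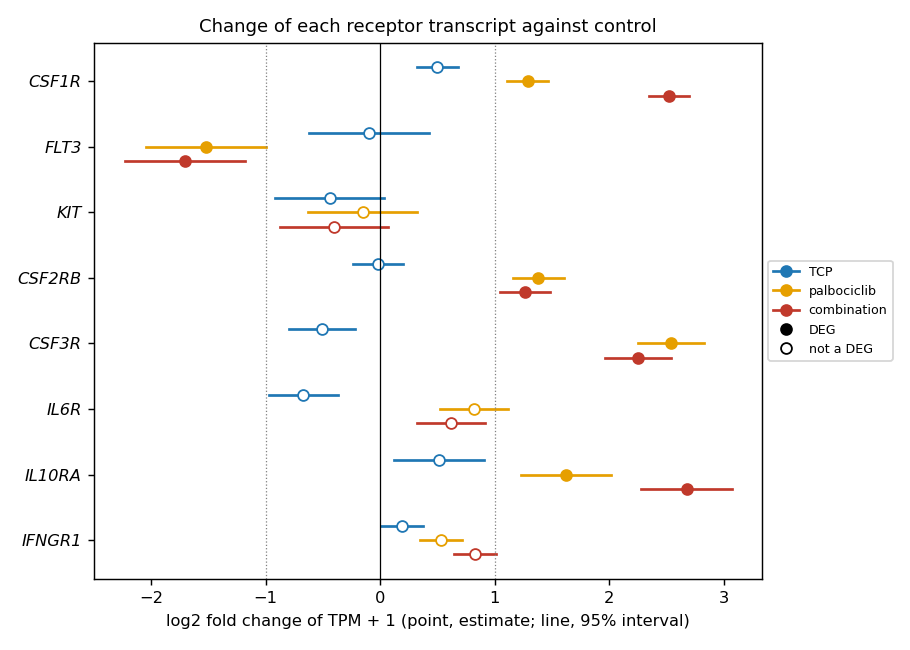
Log2 fold change of TPM + 1 against control (horizontal axis) for the 8 tested receptors with TCP, palbociclib and the combination, as limma estimates with 95% intervals. Filled points are DEG, and dotted lines mark a log2 fold change of 1 in either direction. No TCP point is filled, and the palbociclib and combination intervals lie apart for CSF1R (1.29 and 2.52) and IL10RA (1.62 and 2.68).

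The combination against palbociclib asks what TCP adds in cells that also receive palbociclib. CSF1R alone was a DEG, 1 of 8 receptors where 0.502% of the genes tested were DEG (0.459% higher and 0.0424% lower), at 2.35 times its level with palbociclib (log2 fold change 1.24, SE 0.07, limma adjusted p = 0.0015). The change between same-numbered libraries was 1.23 and 1.24. Its call was lost without palbociclib replicate 1 (limma adjusted p = 0.0253), palbociclib replicate 2 (0.026), combination replicate 1 (0.0413) or combination replicate 2 (0.0357), with log2 fold changes from 1.20 to 1.27. IL10RA was 2.07-fold higher without passing the threshold (log2 fold change 1.05, SE 0.17, limma adjusted p = 0.0249). IFNGR1 had a log2 fold change of 0.29 (adjusted p = 0.105).

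The remaining receptors moved little between palbociclib and the combination. For FLT3 the log2 difference was -0.19, with a 95% interval from -0.71 to 0.34, and for CSF2RB -0.11, with an interval from -0.33 to 0.10. Both pairs of groups overlapped. CSF3R differed by -0.29 (interval from -0.58 to 0.00177) and IL6R by -0.20 (interval from -0.50 to 0.10), with no overlap of the libraries. KIT differed by -0.25, with an interval from -0.72 to 0.22.

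Whether TCP acted differently with and without palbociclib was tested as an interaction. CSF1R had the largest value of the 8, with 0.74 (SE 0.11), from a log2 fold change of 0.50 without palbociclib to 1.24 with it. Its unadjusted limma p was 0.000221 and its adjusted p 0.20, and the adjusted p over all alternatives ran from 0.00966, without a filter on low genes, to 0.779, without combination replicate 1. IL10RA followed with 0.54 and IL6R with 0.47 (limma adjusted p = 0.808 and 0.746). Limma called none of the 8 receptors and 0% of all genes tested, while 2 receptors, CSF1R and IL6R, and 6.39% of all genes had an unadjusted p below 0.05.

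**Figure D4:**
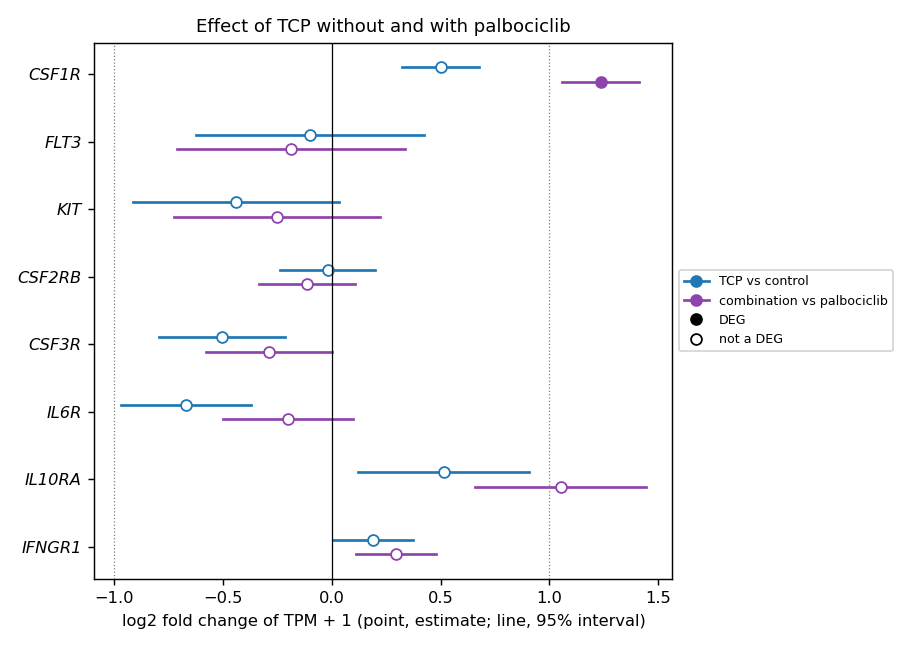
Log2 fold change of TPM + 1 for TCP against control and for the combination against palbociclib (horizontal axis), with 95% intervals from limma, for the 8 tested receptors. Filled points are DEG. The 2 intervals of CSF1R do not overlap (0.50 and 1.24), those of the other 7 receptors do.

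The combination against TCP asks the same of palbociclib. Here 6 of 8 receptors were DEG, where 12.2% of the genes tested were (5.46% higher and 6.7% lower). CSF3R (log2 fold change 2.76), IL10RA (2.16), CSF1R (2.02), IL6R (1.29) and CSF2RB (1.29) were higher and FLT3 (-1.61) lower. The limma adjusted p lay between 1.6e-05 for CSF1R and 0.0012 for FLT3. FLT3 lost its call without combination replicate 2 (-1.42, limma adjusted p = 0.0117). IFNGR1 was 1.55-fold higher (log2 fold change 0.64, adjusted p = 0.000731), under the fold required of a DEG, and KIT had a log2 fold change of 0.04. The median over the 8 was 1.29, beside -0.18 over all genes tested.

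The order of the receptors by level changed accordingly. In control FLT3 led, followed by IFNGR1, CSF3R and CSF2RB, then IL10RA and CSF1R, whose libraries overlapped, IL6R and KIT. With TCP the first 3 places were the same, and CSF2RB, IL10RA and CSF1R could not be ordered beyond their spread. With palbociclib CSF3R led (mean 344 ± 2.54 TPM, SD, n = 2), ahead of IFNGR1 (158 ± 7.54) and FLT3 (82.3 ± 17.7). With the combination CSF3R (282 ± 6.59) and IFNGR1 (193 ± 12.5) were followed by IL10RA (99.3 ± 12.4) and CSF1R (88.8 ± 2.69), whose libraries overlapped, and FLT3 (71.8 ± 13.1) came after them. The summed TPM of the 10 receptors ran from 413 to 509 in the 4 libraries without palbociclib and from 751 to 819 in the 4 with it.

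The cells expressed the markers of their line: all 8 listed leukaemic myeloid markers reached 1 TPM in every library. With the combination 2 of the 8 were DEG, both higher, where 13.7% of the genes tested were DEG. They were the lysozyme gene LYZ and SPI1, which encodes the myeloid transcription factor of that name. SPI1 measured 213.9 and 250.1 TPM in control, 410 and 464 with palbociclib and 437 and 497 with the combination. Its log2 fold change was 1.01 with the combination (limma adjusted p = 0.00121), just above the fold required of a DEG. With palbociclib it was 0.91 (limma adjusted p = 0.00252), under that fold. LYZ was already a DEG with palbociclib (log2 fold change 5.25, limma adjusted p = 0.000458). With the combination 6 of the 8 markers had a positive log2 fold change and 2 a negative one. The 2 lower were HOXA9 and MEIS1 (-0.74 and -0.44, limma adjusted p = 0.00177 and 0.0121), under the fold required of a DEG. Among lymphoid markers CD3E, CD3G and MS4A1 were at 0. The study's methods describe co-culture of cell lines on HS-5, a human bone marrow stromal line, while the labels do not mention it. The summed TPM of 15 stromal markers was 14.6 and 21.9 in control and 18.6 and 25.5 with TCP. It was 22.4 and 122 with palbociclib and 31.8 and 42.6 with the combination. Of these sums the marker TAGLN supplied 10.9 and 8.30 TPM in control. Replicate 2 was higher for 11 of the 15 markers in control, 12 with TCP, 14 with palbociclib and 13 with the combination. COL1A1, COL1A2 and COL3A1 together measured 0.342 and 2.99 TPM in control and 0.411 and 3.41 with TCP. They measured 2.47 and 55.1 TPM with palbociclib and 4.17 and 8.33 with the combination. Both sums were highest in palbociclib replicate 2, which stood apart. Of the 15, 2 reached 1 TPM in every library, and POSTN was at 0. Without that library CSF1R, CSF2RB, CSF3R and IL10RA were still DEG with palbociclib and FLT3 was not. Fewer cells of a type and less RNA per cell cannot be told apart in such bulk libraries.

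Of the 10 listed ligands of these receptors, 5 were tested, and limma called none in any comparison. At an unadjusted p below 0.05 there were 2 with palbociclib and 2 with the combination, CSF1 and FLT3LG, both lower, where 53.3% and 59.2% of all genes tested had such a p. FLT3LG, the FLT3 ligand, measured 5.50 and 6.49 TPM in control, 2.24 and 3.24 with palbociclib and 2.73 and 2.32 with the combination (log2 fold change -0.91 and -0.99, limma adjusted p = 0.00538 and 0.00294), just under the fold required of a DEG. CSF1, the CSF1R ligand, measured 3.17 and 1.15 TPM in control and 0.288 and 0.325 with the combination. CSF1 was tested only because both control libraries and TCP replicate 1 reached 1 TPM. IL34, IL3 and IFNG were listed at 0 in every library, and KITLG and IL10 stayed below 1 TPM.

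The ligands CSF3 and IL6 differed between the replicates of each group. The log2 difference of TPM + 1 was smallest with the combination, at 0.65 for IL6 and 0.54 for CSF3. IL6 measured 3.39 and 14.5 TPM in control, 2.92 and 11.7 with TCP, 8.08 and 84.6 with palbociclib and 14.7 and 23.7 with the combination. CSF3 measured 1.65 and 13.3 TPM in control, 2.10 and 12.3 with TCP, 3.14 and 47.1 with palbociclib and 7.57 and 11.5 with the combination. Replicate 2 was higher in each group for both, as was the sum of stromal markers, and the peak of all 3 was palbociclib replicate 2. CSF2 was also highest in a replicate 2 library, with 12.1 TPM in control replicate 2 and 9.99 in palbociclib replicate 2. With the combination CSF2 was higher in replicate 1 (3.46 TPM) than in replicate 2 (2.44 TPM). The part of stromal cells in these ligand values was not tested.

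**Figure D5:**
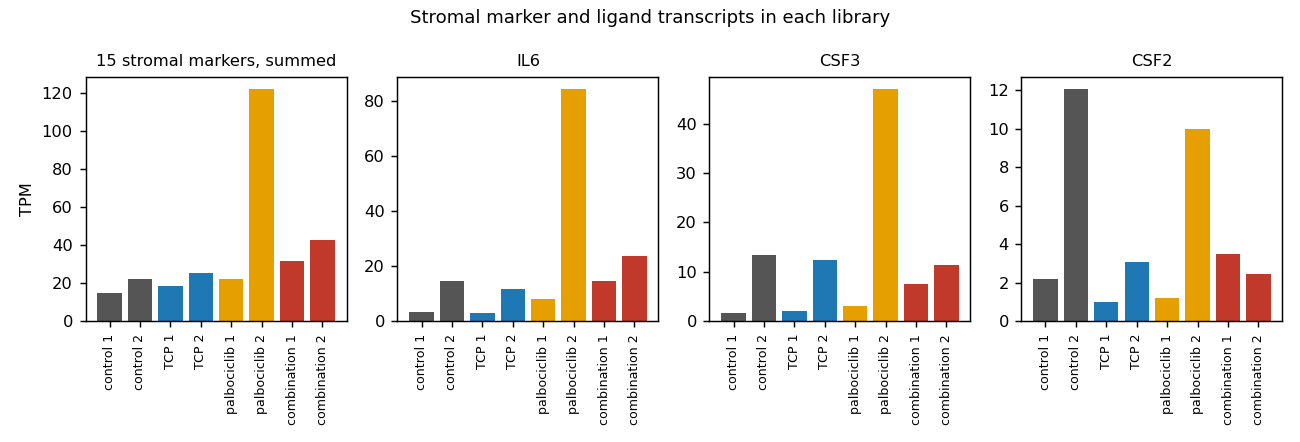
TPM (vertical axes, from 0, a separate scale for each panel) of 15 stromal markers summed and of the ligands IL6, CSF3 and CSF2 in each of the 8 libraries, coloured by group. Palbociclib replicate 2 is the highest bar for the stromal sum (122), IL6 (84.6) and CSF3 (47.1).

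The partner chains of IL10RA, IFNGR1 and IL6R were measured in every library. IL10RB, the second chain of the IL10 receptor, measured 71.7 and 68.4 TPM in control and 91.4 and 92.6 with the combination, and IFNGR2, that of the IFNG receptor, 68.4 and 65.4 TPM in control and 102 and 107 with the combination. IL6ST (gp130), which carries the signal of IL6R, measured 8.68 and 7.66 TPM in control and 14.3 and 12.8 with the combination. Limma called none of these 3 in any comparison. Their log2 fold changes with the combination were 0.39, 0.64 and 0.67 (limma adjusted p = 0.00406, 0.00149 and 0.0106), and all 3 had an unadjusted p below 0.05, as did 59.2% of all genes tested.

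The lists of genes downstream of the receptors are read beside the 9.1% of all genes tested that were DEG with palbociclib and the 13.7% with the combination. None of the 10 tested JAK kinases and STAT factors was called by limma in any comparison, with 2 at an unadjusted p below 0.05 with palbociclib, JAK3 and STAT5A, and 2 with the combination, JAK3 and STAT6, all higher, where 53.3% and 59.2% of all genes tested were. JAK3, the kinase paired with the shared chain of the IL2 receptor family, measured 36.7 and 33.9 TPM in control and 46.6 and 50.3 with the combination. Among 16 feedback inhibitors and phosphatases 1 was a DEG, SOCS3, which is induced by STAT signalling and inhibits gp130 and CSF3R. SOCS3 measured 55.5 and 52.5 TPM in control, 50.7 and 37.2 with TCP, 126 and 136 with palbociclib and 145 and 152 with the combination (log2 fold change 1.26 and 1.44, limma adjusted p = 0.000659 and 0.000243). Among 13 tested adaptors 1 was a DEG, PIK3R5, a regulatory subunit of PI3-kinase gamma, with 12.6 and 12.8 TPM in control, 35.8 and 32.7 with palbociclib and 35.4 and 33.9 with the combination (log2 fold change 1.37 and 1.38, limma adjusted p = 0.000113 and 5.46e-05). Disregarding the fold, 7 of the 16 feedback inhibitors and phosphatases and 5 of the 13 adaptors had a limma adjusted p below 0.01 with the combination, beside 36% of all genes tested.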

How the data were processed

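Total RNA of MV4-11 cells was made into stranded mRNA libraries, 2 for each of 4 groups. The authors aligned reads to hg19 (GRCh37) with Subread, counted them per gene with featureCounts 1.6.4 and deposited the values as TPM. SAMtools 1.9 and DESeq2 1.26.0 are also named in the submitters' processing notes. The gene annotation, gene lengths and strand setting are not given in the sources used here. TPM sum to 1000000 in each library, so an abundant gene that rises lowers all others, and the read depth is unknown.

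From the deposited TPM, log2(TPM + 1) was fitted in limma 3.58.1 (R 4.3.3) with a mean for each group, using the 8 libraries jointly (4 residual degrees of freedom) and letting the prior variance follow expression. The 6 comparisons were adjusted by Benjamini-Hochberg over the 14151 genes that reached 1 TPM in 2 or more libraries. The code was tested on simulated data. Replicate numbers 1 and 2 recur in each group. Across genes, libraries sharing a number deviated together, with correlations of 0.169 to 0.491 over the 6 pairs of groups. The number was therefore taken to pair libraries, on this evidence only, and a fit with it as a block was an alternative. The other alternatives were a pseudocount of 0.1, quantile normalization, median-ratio scaling, no filter, a filter at a mean of 5 TPM, only the groups compared, no trend, an adjusted p below 0.05, no fold threshold and each library left out.

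The 10 receptors, the gene lists and the motif letters were chosen with earlier results of these data, or the sequences themselves, known. Named beside the receptors are genes of the lists that were DEG in at least 1 comparison with control, at most 4 in each direction by the change with the combination. Genes named outside this rule are the ligands, partner chains, JAK3, STAT5A, STAT6, HOXA9 and MEIS1, and stromal, lymphoid and pseudoautosomal genes. Coordinates are from a GENCODE annotation of GRCh37, and no exon of a receptor overlapped that of another gene in the table. Promoter sequences are from RefSeq (GRCh38.p14), placed in GRCh37 by exact match.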

Additional observations from a re-analysis of the deposited data

How the results depend on the processing

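The count of DEG among the 8 receptors stayed within 1.5 times under every alternative for the 3 comparisons with control, the combination against TCP and the interaction. Leaving out each library in turn gave 0 to 0 for TCP, 4 to 5 for palbociclib, 5 to 5 for the combination, 5 to 6 for the combination against TCP, 0 to 1 for the combination against palbociclib and 0 to 0 for the interaction. In the combination against palbociclib the count of 1 (CSF1R) became 0 when only the groups compared were fitted (limma adjusted p = 0.0132) and 2, with IL10RA, at an adjusted p below 0.05. With the replicate number as a block the counts were 0, 5, 5, 6, 1 and 0, and no receptor changed its call. Without a filter on low values FLT3 lost its call with palbociclib, the combination and the combination against TCP (limma adjusted p = 0.0223, 0.0127 and 0.0164), and IFNGR1 became a DEG with the combination under median-ratio scaling (log2 fold change 1.06). Directions turned only in comparisons in which the receptor was not called. The log2 fold change of CSF2RB with TCP was 0.036 under quantile normalization, 0.024 under median-ratio scaling, and from -0.087 without control replicate 1 to 0.048 without control replicate 2, with 6.15e-05 without TCP replicate 1. That of FLT3 with TCP ran from -0.36 without TCP replicate 1 to 0.17 without TCP replicate 2, and in the combination against palbociclib from -0.41 without palbociclib replicate 2 to 0.029 without palbociclib replicate 1. The FLT3 interaction ran from -0.35 without TCP replicate 2 to 0.18 without TCP replicate 1, with 0.13 without palbociclib replicate 1 and 0.095 without combination replicate 2. That of KIT in the combination against TCP ran from -0.11 without TCP replicate 2 to 0.19 without TCP replicate 1, with -0.071 without combination replicate 1. Over all genes, the 8 DEG with TCP became 20 with the block, 36 at an adjusted p below 0.05, 3 under quantile normalization, 3 under median-ratio scaling, 15 with no fold threshold, 0 without the filter or with only the groups compared, and 0 or 1 with a library left out. The 71 of the combination against palbociclib became 114 with the block, 42 at a pseudocount of 0.1, 27 without the filter, 10 with only the groups compared and 183 at an adjusted p below 0.05, and 1 when any 1 of the 4 libraries compared was left out. The 1288 with palbociclib became 778 without the filter and 783 without palbociclib replicate 2, and the interaction had 9 without the filter. With no fold threshold 3866, 5091 and 4602 genes were called with palbociclib, with the combination and in the combination against TCP. The causes were not tested. With 2 libraries against 2 an exact two-sided permutation test cannot go below p = 0.333, and TPM keep no read depth, so no counting interval is given.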

Other observations

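Among 38 other cytokine receptors listed, 22 were tested, and 6 were higher and 1 lower as DEG with palbociclib, where 9.1% of the genes tested were DEG. With the combination 9 were higher and 2 lower, where 13.7% were DEG. IL7R, the receptor chain through which lymphoid progenitors receive IL7, had the largest change, from 11.2 and 8.45 TPM in control and 12.3 and 6.67 with TCP to 371 and 244 with palbociclib and 503 and 341 with the combination (log2 fold change against control 4.81 and 5.27, limma adjusted p = 0.000133 and 5.34e-05). At these levels IL7R exceeded CSF3R in both libraries of the combination and in palbociclib replicate 1 (371 against 346 TPM). In palbociclib replicate 2 it did not (244 against 343 TPM). TNFRSF1B, a receptor of TNF, rose from 80.1 and 83.8 TPM in control to 226 and 246 with palbociclib and 261 and 272 with the combination, and TGFBR2, a receptor of TGFB1, from 23.7 and 22.1 to 52.6 and 53.1 and to 68.5 and 61.3.

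IL21R showed another order of groups, with 9.26 and 4.15 TPM in control, 26.5 and 14.6 with TCP, 7.07 and 6.94 with palbociclib and 24.8 and 19.2 with the combination. Both groups with TCP lay above both groups without it. It was a DEG with the combination (log2 fold change 1.65, limma adjusted p = 0.00834) and did not pass the test with TCP (1.51, adjusted p = 0.223) or in the combination against palbociclib (1.51, adjusted p = 0.0811). IL2RB and IL15RA, receptor chains for IL2 and IL15, were lower with palbociclib and with the combination. IL2RB measured 2.74 and 2.20 TPM in control, 0.102 and 0.176 with palbociclib and 0.242 and 0.237 with the combination. It was a DEG in both (log2 fold change -1.60 and -1.48, limma adjusted p = 0.00309 and 0.0032). IL2RB was tested only because its control and TCP libraries reached 1 TPM, the groups in which it was higher. IL15RA measured 25.7 and 19.1 TPM in control, 12.2 and 8.89 with palbociclib and 11.2 and 7.04 with the combination. With the combination it was a DEG (log2 fold change -1.23, limma adjusted p = 0.00694). With the replicate number as a block IL15RA was also a DEG with palbociclib (log2 fold change -1.02, limma adjusted p = 0.0178 without and 0.000299 with the block).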
